A study of Homo sapiens with 12 samples.

Results

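Hypoxia-inducible factors (HIFs), the enzymes that control them and some of their targets were followed as 10 genes of a table of raw read counts, those whose symbol was HIF1A, EPAS1, EGLN1, EGLN3, VEGFA, CA9, ADM, NDRG1, BNIP3 or ANKRD37, out of 44659 genes in all. The counts came from A375 cells, an established human melanoma cell line with mutated BRAF, in 4 groups of 3 libraries. In the MAPKi experiment, cells in DMEM with 10% FBS and 2 mM glutamine received 500 nM vemurafenib, an inhibitor of BRAF, and 500 nM cobimetinib, an inhibitor of MEK, or the solvent DMSO, for 24 h. In the Gln depletion experiment, cells were moved for 24 h to the same kind of medium without glutamine, or kept in CTRL medium with glutamine. No inhibitor was given in the Gln depletion experiment. According to the labels, RNA came from a cytoplasmic fraction, whereas the RNA-seq section of the study's methods describes total RNA. The experiments were sequenced in different batches, so levels set across them cannot be told apart from the batch. Replicate 1 of the Gln-depleted and CTRL medium groups belongs to another experimental batch than replicates 2 and 3. Nothing states that the replicates were separate cultures, so p-values measure the spread between these libraries, which may be technical. The labels name no hypoxic culture.

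HIFs are transcription factors made of an alpha subunit, encoded by HIF1A or EPAS1, and a partner such as ARNT. When oxygen is present, prolyl hydroxylases such as those encoded by EGLN1 and EGLN3 mark the alpha subunits, which the VHL ubiquitin ligase then sends to degradation. HIF activity is thus set largely at the level of protein, which was not measured here. The HIF dimer binds a short core motif, ACGTG or GCGTG, in promoters and enhancers of its targets. Among the 10 genes, EGLN3, VEGFA, CA9, ADM, NDRG1, BNIP3 and ANKRD37 are known targets, and EGLN1 is a hydroxylase that is itself a target.

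Library totals went from 31056296 to 40071368 reads, with a median of 35748567. A normalized count is a count divided by the library's total and its TMM factor, then brought back to the mean library. Genes averaging 10 or more normalized counts in the 6 libraries of an experiment were tested with edgeR's quasi-likelihood method, which left 15998 genes for MAPKi and 15885 for Gln depletion. A gene was called higher or lower when a test for a change beyond 1.5-fold gave a p of 0.05 or less after Benjamini-Hochberg adjustment, hereafter the 1.5-fold test, and the adjusted p of single genes against no change is named as such. In bulk libraries, fewer cells of a kind and less RNA per cell cannot be told apart. The labels were checked on known targets. With MAPKi, 11 of 11 tested targets of the MAPK pathway were called lower, including DUSP6 (log2 fold change -9.55) and SPRY4 (-7.45). Without glutamine, 8 of 9 tested genes of the amino acid response were called higher, and 9 with the replicate number as a block, including CHAC1 (log2 fold change 3.30) and TRIB3 (3.15).

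Promoter windows of 250 bases before the RefSeq start (GRCh38.p14) were found for 8 of the 10 genes, in 9 windows. They were searched on both strands for ACGTG and GCGTG, the letters CACGTG counting as ACGTG on each strand. Of 35116 such windows of all genes, 43.2% held at least 1 core, 7.76% at least 3 and 1.36% at least 5. The windows of 4 targets are shown because they range from 6 cores to 1, and because ADM rose with MAPKi, BNIP3 fell, ANKRD37 did not pass the 1.5-fold test and CA9 was barely detected. Capitals mark the cores, also where they are read on the opposite strand.
ANKRD37: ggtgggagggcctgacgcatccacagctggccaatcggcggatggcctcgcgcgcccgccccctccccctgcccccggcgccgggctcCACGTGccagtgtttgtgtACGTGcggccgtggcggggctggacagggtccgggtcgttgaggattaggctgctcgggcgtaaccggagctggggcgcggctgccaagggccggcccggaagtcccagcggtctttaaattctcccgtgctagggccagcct
BNIP3: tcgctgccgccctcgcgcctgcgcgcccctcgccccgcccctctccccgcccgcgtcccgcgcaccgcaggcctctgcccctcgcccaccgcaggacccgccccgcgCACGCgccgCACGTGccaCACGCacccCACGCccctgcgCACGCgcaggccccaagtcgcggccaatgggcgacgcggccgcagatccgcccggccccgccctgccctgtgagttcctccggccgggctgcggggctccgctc
CA9: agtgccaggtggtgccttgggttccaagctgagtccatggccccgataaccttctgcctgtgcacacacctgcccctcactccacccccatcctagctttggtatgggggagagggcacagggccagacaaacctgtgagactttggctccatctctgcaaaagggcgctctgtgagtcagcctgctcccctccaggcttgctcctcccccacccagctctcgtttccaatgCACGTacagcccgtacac
ADM: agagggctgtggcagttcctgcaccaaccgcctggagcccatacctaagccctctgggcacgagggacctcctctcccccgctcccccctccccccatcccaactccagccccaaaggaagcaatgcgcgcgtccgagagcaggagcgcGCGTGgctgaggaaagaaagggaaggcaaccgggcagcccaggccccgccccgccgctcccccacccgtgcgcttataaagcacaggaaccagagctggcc
The ANKRD37 window (chr4:185396591-185396840, + strand) held 3 cores, 2 of which were both readings of 1 CACGTG. That of BNIP3 (chr10:131981924-131982173, - strand) held 6, with 1 CACGTG and 4 GCGTG read on the opposite strand. The CA9 window (chr9:35673678-35673927, + strand) held 1 core 16 bases before the start, and the ADM window (chr11:10304823-10305072, + strand) held 1 core 99 bases before it. The windows of EGLN1 and EPAS1 held 1 core each, those of HIF1A 1 and 0, and that of EGLN3 0. A match of these letters is a description of the sequence and not a measured binding site.

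With MAPKi, the genes of the alpha subunits moved in opposite directions. EPAS1 rose 6.59-fold and HIF1A fell 2.04-fold. Of the targets, VEGFA rose 2.11-fold and ADM 2.10-fold, and BNIP3 fell 1.71-fold. In all, 3 of the 9 tested genes were called higher and 2 lower, where 16.4% and 17.4% of all tested genes were called. Against no change, 5 were higher and 2 lower, where 36.4% and 35.3% of all tested genes were, and the groups did not overlap in 5 higher and 3 lower genes, against 38.2% and 37.5%. CA9, with 0 to 4 reads in every library of both experiments, was not tested. The gene ARHGEF39 on the opposite strand shares 35.7% of the exon bases of CA9, so how reads on these bases were assigned is uncertain. The median log2 fold change of the 9 genes was 0.39, against 0.011 over all genes tested.

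HIF1A (chr14:61695513-61748259) encodes the HIF-1 alpha subunit. Its normalized counts were 12769, 14180 and 13929 with DMSO, and 6443, 6901 and 6725 with MAPKi. Each MAPKi library lay below every DMSO library, with a log2 fold change of -1.03 (standard error 0.054, adjusted p = 2.09e-05 in the 1.5-fold test of edgeR). EPAS1 (chr2:46293667-46386697) encodes the HIF-2 alpha subunit. Its normalized counts were 1146, 1133 and 1306 with DMSO, and 7523, 7870 and 8245 with MAPKi. The groups stood far apart, with a log2 fold change of 2.72 (standard error 0.067, adjusted p = 2.26e-08 in the 1.5-fold test of edgeR). HIF1A-AS1, an antisense gene at HIF1A, also fell, from 174 to 90.7 normalized counts (log2 fold change -0.94, adjusted p = 0.0317 in the 1.5-fold test of edgeR). It shares 2.58% of the exon bases of HIF1A, and the strand setting of the counting is not given in the sources used here, so reads on these bases cannot be assigned to 1 of the genes. The partner genes ARNT and ARNT2 had log2 fold changes of 0.25 (95% interval 0.14 to 0.35) and 0.19 (95% interval 0.11 to 0.27), which did not pass the 1.5-fold test.

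**Figure D1:**
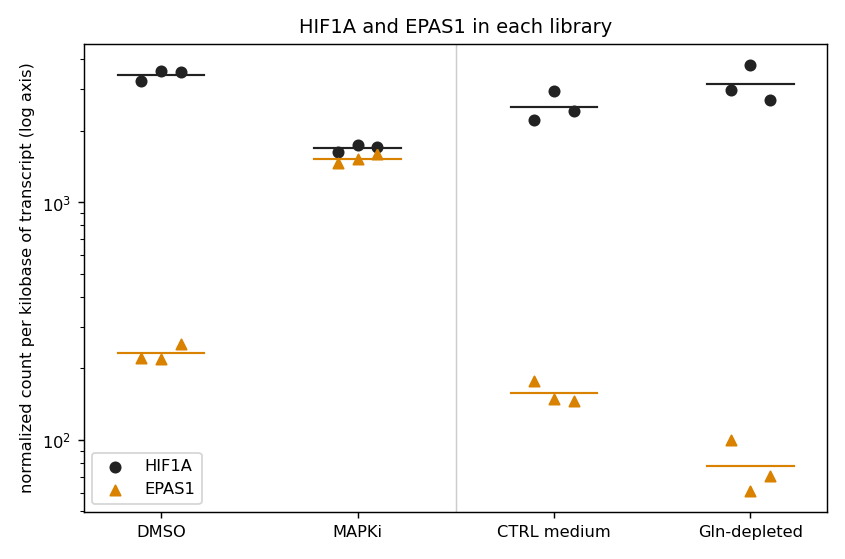
Normalized counts per kilobase of transcript of HIF1A (circles) and EPAS1 (triangles) in the 3 libraries of each group, on a log axis, with horizontal lines at the group means. The genes nearly met with MAPKi, at means of 1695 and 1529 per kilobase, and stood apart in the other groups.

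Per kilobase of transcript, the normalized count of HIF1A was 14.9 ± 1.26 times that of EPAS1 with DMSO and 1.11 ± 0.041 times with MAPKi (SD, n = 3). The ratio was 13.9, 14.6 and 16.4 in the DMSO libraries, and 1.07, 1.12 and 1.15 in the MAPKi libraries. Before division by length, EPAS1 had the higher normalized count with MAPKi (7523, 7870 and 8245, against 6443, 6901 and 6725 for HIF1A). Which of the pair was higher with MAPKi thus depends on the transcript lengths taken. In CTRL medium the ratio was 16.3 ± 3.62, and in Gln-depleted medium 43.3 ± 16.6 (SD, n = 3). These ratios describe mRNA and not subunits.

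EGLN1 (chr1:231363751-231422287) and EGLN3 (chr14:33924227-34462774), the hydroxylase genes, did not pass the 1.5-fold test with MAPKi. EGLN1 had 2744, 2721 and 2426 normalized counts with DMSO and 3379, 3400 and 3554 with MAPKi. The groups did not overlap, and the log2 fold change was 0.39 (95% interval 0.26 to 0.52, edgeR adjusted p = 0.000238 against no change). A GENCODE gene on the same strand shares 55.8% of the exon bases of EGLN1, so the source of reads on these bases is uncertain. EGLN3 had 92.4, 91.9 and 125 normalized counts with DMSO and 85.2, 73.3 and 74.5 with MAPKi. Its log2 fold change was -0.41 (95% interval -0.79 to -0.02, edgeR adjusted p = 0.0564 against no change).

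VEGFA (chr6:43770184-43786487) encodes the growth factor that drives the sprouting of blood vessels. It had 932, 810 and 910 normalized counts with DMSO and 1820, 1896 and 1886 with MAPKi, with no overlap. The change was 1.08 on the log2 scale (standard error 0.058, adjusted p = 1.82e-05 in the 1.5-fold test of edgeR). ADM (chr11:10305073-10307397) encodes adrenomedullin, a peptide that widens vessels. It had 281, 301 and 221 normalized counts with DMSO and 637, 580 and 470 with MAPKi. These groups did not overlap either, and the change was 1.07 on the log2 scale (standard error 0.147, adjusted p = 0.00487 in the 1.5-fold test of edgeR).

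BNIP3 (chr10:131967684-131981967) encodes a mitochondrial protein of the BCL2 family that takes part in mitophagy. It had 1800, 2093 and 1779 normalized counts with DMSO and 1118, 1083 and 1115 with MAPKi. The MAPKi libraries lay close together below the DMSO libraries, with a log2 fold change of -0.77 (standard error 0.066, adjusted p = 0.00862 in the 1.5-fold test of edgeR). This call was lost with DESeq2 (adjusted p = 0.0568) and in an edgeR fit of all 12 libraries (adjusted p = 0.0746), and over all alternatives the adjusted p went from 0.00544 to 0.0746.

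NDRG1, which encodes a stress-responsive cytoplasmic protein, had 3525, 3896 and 3401 normalized counts with DMSO and 3418, 3419 and 3722 with MAPKi. The groups overlapped, and the log2 fold change of -0.035 had a 95% interval from -0.18 to 0.11. ANKRD37 (chr4:185396021-185400628), which encodes a small ankyrin-repeat protein, had 112, 80.0 and 72.1 normalized counts with DMSO and 128, 122 and 112 with MAPKi. The log2 fold change was 0.46 (95% interval 0.04 to 0.87, edgeR adjusted p = 0.0497 against no change), and the adjusted p went from 0.00689 to 0.144 over the alternatives. UFSP2, on the opposite strand, shares 40.3% of the exon bases of ANKRD37, and its log2 fold change was -0.095 (95% interval -0.26 to 0.075). CA9 (chr9:35673928-35681159), which encodes a carbonic anhydrase of the cell surface, had 4, 0 and 1 reads with DMSO and 0, 0 and 1 with MAPKi.

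**Figure D2:**
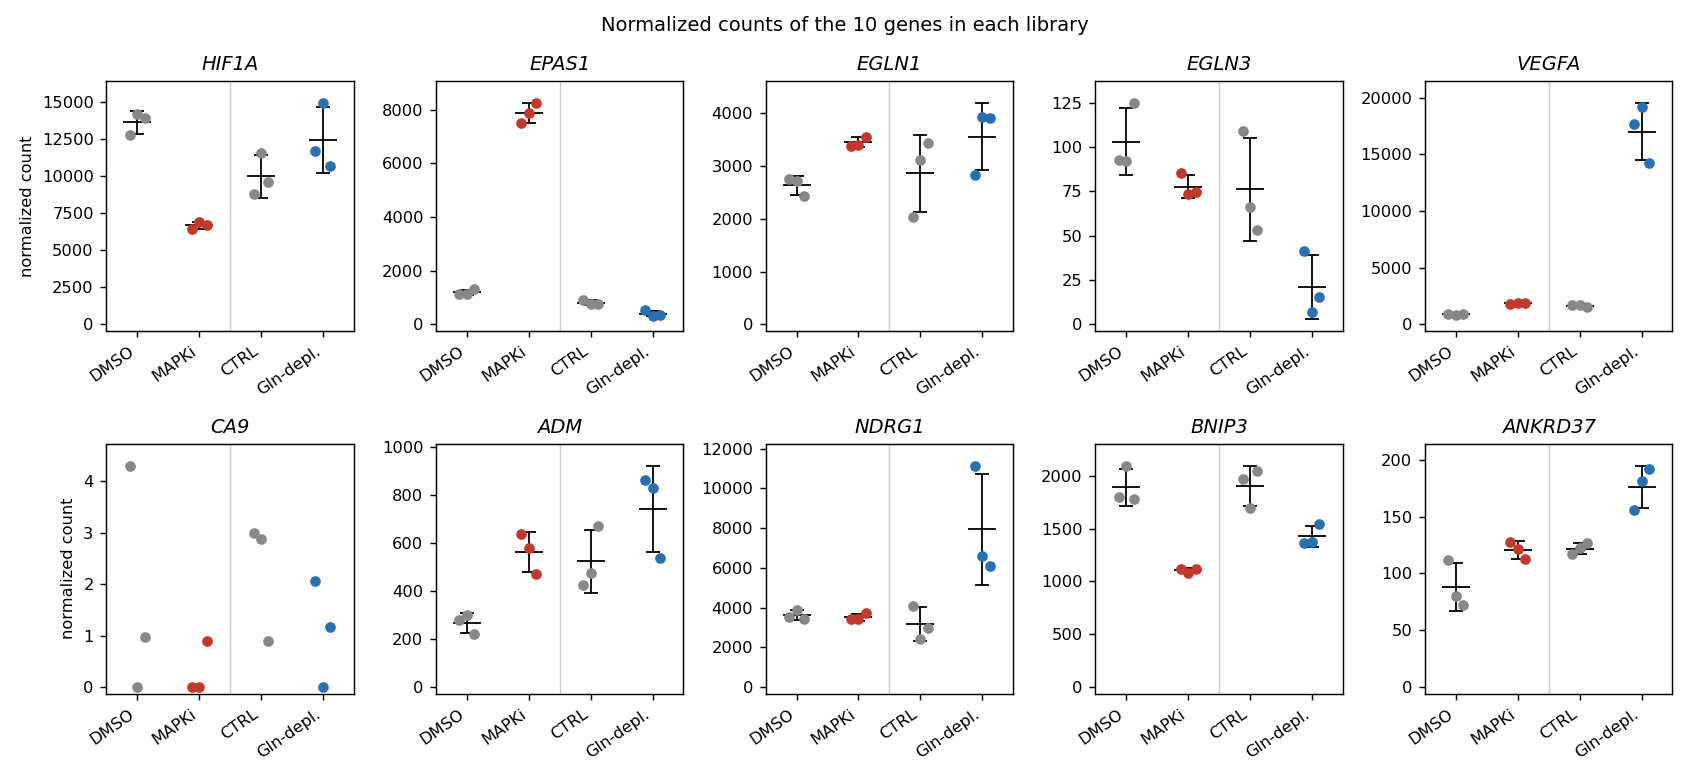
Normalized counts of the 10 genes in each of the 12 libraries (points), with the mean and SD of each group (black bars), on linear axes from 0 with a scale of their own for each gene. CA9 is shown without bars, since it had 0 to 4 reads per library. EPAS1 stands out with MAPKi and VEGFA in Gln-depleted medium.

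Genes of the wider HIF pathway moved in both directions with MAPKi, where 16.4% of all tested genes were called higher and 17.4% lower. Of 6 tested subunits and coactivators, EPAS1 and CREBBP, the gene of a coactivator of HIF (log2 fold change 0.90), were called higher and HIF1A lower. Of 9 tested genes of oxygen sensing and HIF turnover, CITED2, whose product competes with HIF for its coactivators, rose by 1.89 on the log2 scale, from 719 to 2658 normalized counts. RBX1, which encodes a subunit of the VHL ubiquitin ligase, had a log2 fold change of -0.71 and was called lower. EGLN2, another hydroxylase gene, had 0 to 5 reads in its row and was not tested. A read-through gene on the same strand, RAB4B-EGLN2, shares 30.6% of its exon bases, so this count does not show the level of EGLN2.

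Of 18 tested targets in glucose metabolism, 1 was called higher and 5 lower, where 16.4% and 17.4% of all tested genes were called. Their median log2 fold change was -0.36. SLC16A3, which encodes a lactate exporter, rose (log2 fold change 1.49, adjusted p = 0.000189 in the 1.5-fold test of edgeR). PFKFB4, a regulator of glycolysis, fell (log2 fold change -1.76), as did PDK1, a kinase that restrains pyruvate dehydrogenase (-1.09). LDHA was also called lower (log2 fold change -1.78), but from 2 to 49 reads per library, and a further copy of it in the table holds from 61 to 8627 reads. Of 35 tested targets with other roles, including members of the 10 genes, 8 were called higher and 8 lower, against the same shares. Their median log2 fold change was 0.085. The highest were BHLHE41, a transcriptional repressor (log2 fold change 1.93), CITED2 (1.89) and HMOX1, which encodes heme oxygenase (1.77). The lowest were KDR (log2 fold change -4.56, from 136 to 5.97 normalized counts), TGFA, a ligand of the EGF receptor (-4.08), and FLT1 (-2.29).

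VEGFA thus rose while the genes of its receptors KDR and FLT1 and of its relative PGF (log2 fold change -1.62) fell, so that 1 was called higher and 3 lower among 8 tested genes of the VEGF family and its receptors. Leaving the 10 genes out, 7 of 46 tested HIF targets were called higher and 12 lower, with a median log2 fold change of -0.32. Beside these counts, 16.4% of all tested genes were called higher and 17.4% lower.

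**Figure D3:**
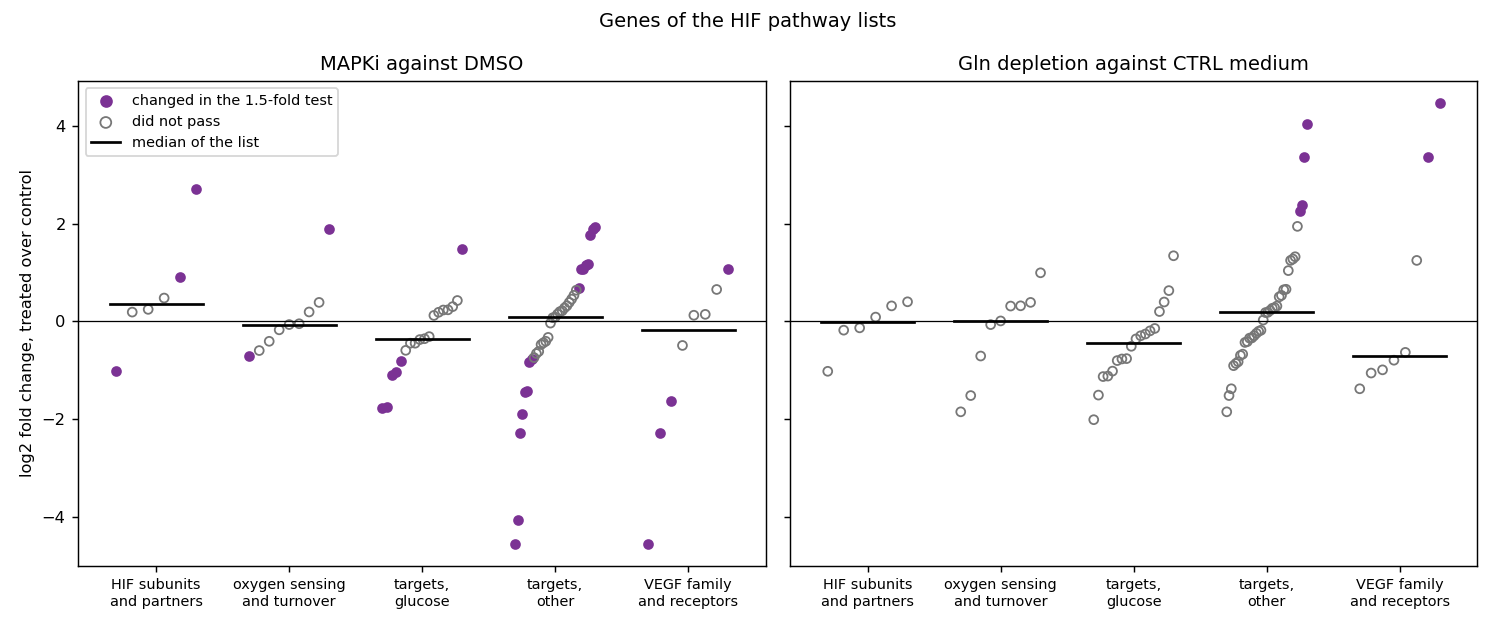
Log2 fold changes of the tested genes of 5 lists of the HIF pathway with MAPKi (left) and Gln depletion (right), as filled points where the 1.5-fold test called them and as open circles otherwise, with a line at the median of each list. Genes lie on both sides of 0 in every list with MAPKi, and the 6 filled points with Gln depletion, VEGFA being drawn in 2 lists, lie above 0.

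Without glutamine, VEGFA rose 10.4-fold. It was the 1 gene of 9 tested that the 1.5-fold test called higher without a block, and 0 were called lower, where 3.02% and 1.82% of all tested genes were called. At an unadjusted p under 0.05 in the 1.5-fold test of edgeR, 2 were higher and 2 lower, where 9.19% and 9.25% of all tested genes were. DESeq2 called 1 higher and 0 lower, where it called 3.03% and 1.59% of all tested genes. Replicate numbers pair these libraries, and with the replicate number as a block in edgeR 2 of the 9 were called higher (VEGFA and NDRG1) and 2 lower (EPAS1 and EGLN3), where 7.76% and 6.89% of all tested genes were. Against no change, 2 were higher and 1 lower, where 8.11% and 7.4% of all tested genes were, and the groups did not overlap in 3 higher and 3 lower genes, against 18.7% and 19.7%. The median log2 fold change of the 9 genes was 0.32, against -0.021 over all genes tested.

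VEGFA had 1672, 1692 and 1539 normalized counts in CTRL medium and 17633, 19128 and 14227 in Gln-depleted medium. The lowest Gln-depleted library was far above the highest CTRL medium library. The change was 3.38 on the log2 scale (standard error 0.204, adjusted p = 0.00136 in the 1.5-fold test of edgeR), and 3.37 within experimental batch 2, which holds 2 libraries of each group. Experimental batch 1 holds 1 library of each group and gives no test.

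NDRG1 had 4095, 2418 and 2994 normalized counts in CTRL medium and 11136, 6580 and 6101 in Gln-depleted medium. The groups did not overlap, and replicate 1 was the highest library of each. The log2 fold change of 1.32 (95% interval 0.63 to 2.02) did not pass the 1.5-fold test of edgeR (adjusted p = 0.0952). It passed with the block (log2 fold change 1.31, adjusted p = 0.00398 from edgeR) and within experimental batch 2 (1.23, adjusted p = 0.0284 from edgeR), and over all alternatives the adjusted p went from 0.00398 to 0.247.

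EPAS1 had 914, 766 and 749 normalized counts in CTRL medium and 516, 315 and 365 in Gln-depleted medium, with no overlap. Its log2 fold change was -1.02 (95% interval -1.58 to -0.46, adjusted p = 0.151 in the 1.5-fold test of edgeR). With the block it was -1.05 (adjusted p = 0.025 from edgeR), and within experimental batch 2 it was -1.16 (adjusted p = 0.0459 from edgeR). Over all alternatives the adjusted p of the 1.5-fold test went from 0.025 to 0.939. HIF1A, the other alpha subunit gene, had 8786, 11579 and 9597 normalized counts in CTRL medium and 11720, 14927 and 10693 in Gln-depleted medium. These groups overlapped, and without the block the log2 fold change of 0.32 had a 95% interval from -0.16 to 0.79. The log2 ratios of same-numbered libraries were 0.42, 0.37 and 0.16. With the block the log2 fold change was 0.31 (standard error 0.109, edgeR adjusted p = 0.0556 against no change).

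EGLN3 had 109, 66.3 and 53.1 normalized counts in CTRL medium and 41.3, 6.67 and 15.2 in Gln-depleted medium. The groups did not overlap, but they differed by few reads, with 60 to 109 reads in the first and 7 to 40 in the second. The log2 fold change was -1.85 (95% interval -3.31 to -0.39, adjusted p = 0.197 in the 1.5-fold test of edgeR), and with the block it was -2.07 (adjusted p = 0.03 from edgeR). Without Gln-depleted replicate 1 alone it was -2.82 (adjusted p = 0.0357 from edgeR), and within experimental batch 2 it was -2.47 (adjusted p = 0.0432 from edgeR). Over all alternatives the adjusted p went from 0.03 to 0.502. EGLN1 had 2029, 3113 and 3432 normalized counts in CTRL medium and 2821, 3935 and 3905 in Gln-depleted medium. The groups overlapped, with a log2 fold change of 0.31 without the block (95% interval -0.26 to 0.89). Its log2 ratios of same-numbered libraries were 0.48, 0.34 and 0.19. With the block the log2 fold change was 0.33 (standard error 0.115, edgeR adjusted p = 0.0531 against no change).

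The other targets did not pass the 1.5-fold test. BNIP3 had 1973, 1690 and 2047 normalized counts in CTRL medium and 1364, 1376 and 1543 in Gln-depleted medium. Without overlap, its log2 fold change was -0.41 (95% interval -0.83 to 0.003), with an edgeR adjusted p against no change of 0.152, and of 0.027 with the block (range over the alternatives 0.015 to 0.36). ANKRD37 had 117, 122 and 127 normalized counts in CTRL medium and 156, 181 and 192 in Gln-depleted medium, again without overlap. Its log2 fold change was 0.53 (95% interval -0.04 to 1.11), and that of UFSP2, which shares exon bases with it, was 0.87 (95% interval 0.32 to 1.43). With the block that of ANKRD37 was 0.53 (edgeR adjusted p = 0.0789 against no change). ADM had 423, 476 and 672 normalized counts in CTRL medium and 861, 829 and 536 in Gln-depleted medium, which overlapped (log2 fold change 0.50, 95% interval -0.12 to 1.13). Its log2 ratios of same-numbered libraries were 1.02, 0.80 and -0.33, and with the block its edgeR adjusted p against no change was 0.165. CA9 had 3, 3 and 1 reads in CTRL medium and 2, 0 and 1 in Gln-depleted medium.

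**Figure D4:**
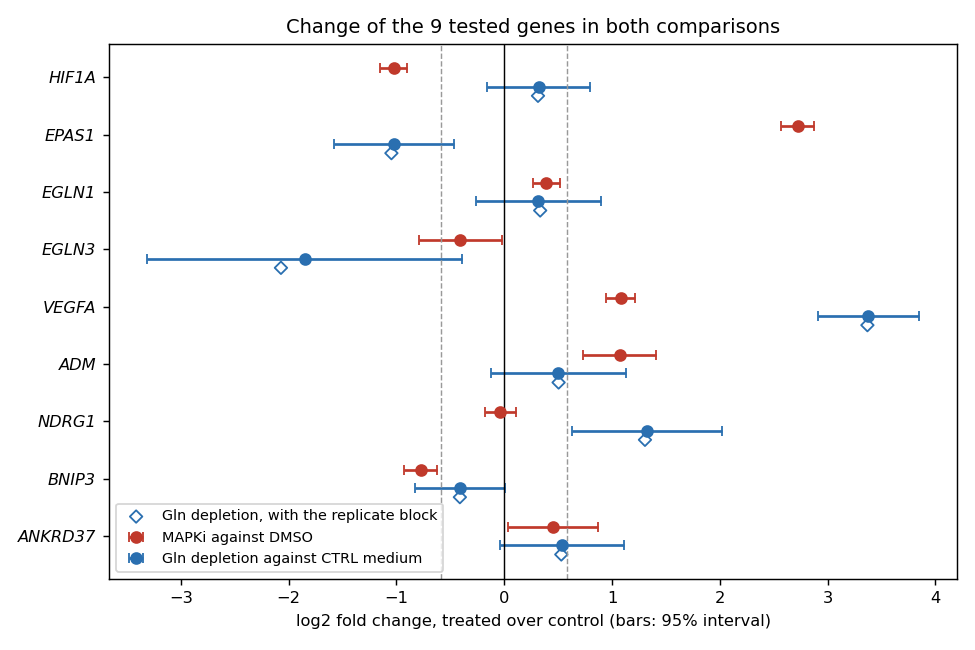
Log2 fold change, treated over control, of the 9 tested genes with MAPKi (red) and Gln depletion (blue), with 95% intervals as bars, and the Gln depletion values with the replicate block as open diamonds. Dashed lines mark a 1.5-fold change. The intervals are wider for Gln depletion, and EPAS1 lies on opposite sides of 0.

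Few other genes of the HIF pathway were called without glutamine, where 3.02% of all tested genes were called higher and 1.82% lower. With the block these shares were 7.76% and 6.89%. Of 36 tested targets with roles outside glucose metabolism, 4 were called higher and 0 lower, among them VEGFA, DDIT4, which restrains mTORC1 (log2 fold change 2.39), and STC2, which encodes a secreted glycoprotein (2.27) and is named after its value was seen. With the block, 7 were called higher and 2 lower. Of 8 tested genes of the VEGF family and its receptors, 2 were called higher and 0 lower, VEGFA and the coreceptor gene NRP1, which rose from 960 to 21344 normalized counts (log2 fold change 4.47, adjusted p = 0.00319 in the 1.5-fold test of edgeR). The Gln-depleted libraries had 25108, 29738 and 9184 normalized counts of NRP1, above 834 to 1127 in CTRL medium. With the block, 3 genes of this list were called higher, FLT1 being added (log2 fold change 1.16, adjusted p = 0.0274 from edgeR), and 1 lower, VEGFB (-1.13, adjusted p = 0.0259 from edgeR), a relative of VEGFA named after its value was seen.

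Of 6 tested subunits and coactivators, 9 genes of oxygen sensing and turnover, and 18 targets in glucose metabolism, 0 were called by edgeR in either direction. At an unadjusted p under 0.05 in the same test these lists held 0 higher and 1 lower, 1 higher and 2 lower, and 1 higher and 5 lower. DESeq2 called 1 gene of glucose metabolism lower and 0 others. With the block, edgeR called 0 higher and 1 lower (EPAS1) in the first list. In the second, VHL was called higher and CITED2 and EGLN3 lower, and in the third 1 gene was called higher and 4 lower. CITED2 had a log2 fold change of -1.52 (95% interval -2.31 to -0.73), opposite in sign to that with MAPKi. Leaving the 10 genes out, 3 of 47 tested HIF targets were called higher and 0 lower, where 3.02% and 1.82% of all tested genes were. With the block these were 6 and 5, where 7.76% and 6.89% of all tested genes were called. The median log2 fold change of the 47 was -0.24.

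The effects of MAPKi and of Gln depletion were compared in an edgeR contrast over the 12 libraries, in which 36.1% of 16072 genes differed (adjusted p of 0.05 or less). Of the 9 genes, 4 differed. EPAS1 differed most, with a log2 difference, MAPKi minus Gln depletion, of 3.74 (standard error 0.243, edgeR adjusted p = 9.75e-07). HIF1A differed by -1.34 (edgeR adjusted p = 0.000398), the effect of MAPKi being negative and that of Gln depletion positive. VEGFA, which rose in both experiments, differed by -2.30 (edgeR adjusted p = 3.39e-06), with the larger effect in Gln-depleted medium. NDRG1 differed by -1.36 (edgeR adjusted p = 0.00708).

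With a term for the pairs of replicates, EGLN3 (log2 difference 1.65, edgeR adjusted p = 0.019) and BNIP3 (-0.36, edgeR adjusted p = 0.0345) also differed, and without it their adjusted p from edgeR was 0.121 and 0.107. The differences of EGLN1 (0.075, 95% interval -0.50 to 0.65), ADM (0.57, 95% interval -0.14 to 1.27) and ANKRD37 (-0.077, 95% interval -0.67 to 0.52) did not pass in either fit. Sequencing batch and experiment cannot be told apart in this contrast.

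Ordered by normalized count per kilobase, HIF1A was the highest of the 10 genes in the DMSO, MAPKi and CTRL medium groups, and CA9 was the lowest in every group. The lengths are those of the MANE Select transcript, whereas reads were counted on the exons of each gene. Orders between genes depend on this choice, and other lengths were not tested. With DMSO, HIF1A at 3453 ± 191 was followed by BNIP3 at 1226 ± 114 and NDRG1 at 1193 ± 85.2 per kilobase (SD, n = 3), the last 2 being within their spread. VEGFA (245 ± 18.0) and EPAS1 (232 ± 18.7) were also within their spread, and EGLN3 at 38.1 ± 6.96 stood above CA9. With MAPKi, EPAS1 moved from rank 6 to rank 2, at 1529 ± 70.0 per kilobase.

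In CTRL medium, HIF1A at 2531 ± 364 led BNIP3 at 1234 ± 122 and NDRG1 at 1048 ± 282 per kilobase (SD, n = 3). Neighbours within the sum of their SDs there were BNIP3 and NDRG1, NDRG1 and EGLN1, VEGFA and ADM, and EPAS1 and ANKRD37. In Gln-depleted medium VEGFA moved from rank 5 to rank 1, at 4709 ± 696 per kilobase. That rank rests on the transcript lengths taken, and other lengths were not tested. HIF1A (3154 ± 560) and NDRG1 (2624 ± 919), and BNIP3 (926 ± 65.0) and EGLN1 (820 ± 146), were within their spread there, and EPAS1 was at rank 8 (77.3 ± 20.2).

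The genes whose pattern was most like that of 3 of the genes were sought by Pearson's correlation of log2 normalized counts, centred within each experiment, over 12 libraries and among 11717 genes averaging 100 or more normalized counts. The libraries share their treatment groups, so high values are common and are given as a description. Most like EPAS1 were CITED1 (r = 0.995), SOX4 (0.993) and ATP5PB (0.989). CITED1 and SOX4 rose with MAPKi, by 4.05 and 3.32 on the log2 scale, and had log2 fold changes of -1.06 and -1.17 without glutamine. The last 2 did not pass the 1.5-fold test of edgeR (adjusted p = 0.271 and 0.0592). The correlation takes no account of the size of a change. ATP5PB had log2 fold changes of 0.67 with MAPKi and -0.20 without glutamine, against 2.72 and -1.02 for EPAS1. Most like HIF1A were MMADHC (r = 0.991), PSMD14 (0.987) and YWHAZ (0.986). Most like VEGFA were MAP1B (r = 0.995), DDIT4 (0.992) and COX7A2L (0.992), of which MAP1B rose by 2.67 on the log2 scale without glutamine.

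Markers checked the label of the cells. Of 8 melanoma markers, 7 averaged 10 or more normalized counts over the 12 libraries. MLANA held only 2 to 5 reads in the Gln-depleted libraries, and 6 of the 8 were tested for Gln depletion. The row of PRAME held 0 to 3 reads per library, but a further copy of it held from 20 to 2295, so its row does not show its level. The summed level of the 8 rows went from 46564 to 49871 with DMSO and from 309170 to 391540 with MAPKi. Most of the MAPKi sum was DCT, whose mean was 7051 normalized counts with DMSO and 276840 with MAPKi. Of 7 tested markers, 5 were called higher (DCT, with a log2 fold change of 5.30, PMEL and MLANA led) and S100B was called lower. The rise of the sum accompanied that of EPAS1, and its part in the results on HIF genes was not tested. In CTRL medium the sum went from 36366 to 44067 and in Gln-depleted medium from 23041 to 26273, where MITF fell (log2 fold change -2.36). Of the 4 endothelial markers, PECAM1 and CDH5 had at most 1 read and TEK at most 13 in any library, and VWF rose with MAPKi from 164 to 303. Among leukocyte markers, CD3E had 0 reads, CD14 at most 4 and PTPRC at most 17 in any library, PTPRC being called lower with MAPKi (log2 fold change -1.82). Of the 4 keratinocyte markers, KRT5 and KRT1 had 0 reads and KRT14 at most 7. KRT10 had 1222 to 3323 reads per library and was not called in either experiment. Among fibroblast markers, LUM had 80 to 753 reads per library, PDGFRA 128 to 462, COL1A1 4 to 70 and DCN at most 4. With MAPKi, 0 of 3 tested were called. Without glutamine 1, LUM (log2 fold change -2.25), was called lower. There the block also called 1 higher, PDGFRA (log2 fold change 1.29, adjusted p = 0.0141 from edgeR), named after its value was seen.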

How the data were processed

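RNA-seq libraries of A375 cells were compared within each experiment, MAPKi with DMSO and Gln-depleted with CTRL medium, 3 libraries per group, grouped by their labels. The authors trimmed the reads with fastp 0.20.1, aligned them to GRCh38.p13 with HISAT2 2.2.1 and counted them per gene with HTSeq 0.13.5, and the deposited values are raw counts of 44659 genes. The strand setting of the counting is not given in the sources used here. Depth was from 31056296 to 40071368 counts per library. For genes with many reads the spread between replicates limits precision more than counting does, whereas few reads limit EGLN3, ANKRD37 and CA9. Replicates differed by more than sampling noise (chi-square divided by its degrees of freedom, 4.74 to 191), so each was kept.

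Counts were tested with edgeR 4.0.16 in R 4.3.3 (quasi-likelihood fit, TMM factors over the 12 libraries, treatment as the only term, mean normalized count of at least 10). Calls were made against a 1.5-fold change, the threshold that the authors applied with DESeq2. P-values were adjusted over all genes tested. Tables and figures were made in Python 3.11.15 with pandas 2.3.3, numpy 2.4.6 and matplotlib 3.10.9. Positions and lengths (MANE Select transcript) came from GENCODE v44, promoters from RefSeq.

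Correlations between the deviations of same-numbered libraries from their group means were 0.489, 0.341 and 0.386 in the Gln depletion experiment, where the labels also name experimental batches, so its libraries were taken as paired and values with the replicate block are given where a call changed. Alternatives were 2 other scalings, DESeq2 1.42.0, a test against no change, other count limits, protein-coding genes only, 1 fit of all 12 libraries, the replicate block, experimental batch 2 only, and each library left out in turn. On simulated counts with 200 genes changed 4-fold, edgeR called 194 for MAPKi (15998 genes, 9 unchanged genes called) and 145 for Gln depletion (15885 genes, 5 unchanged genes called). The simulation took its spread from the control libraries, held no pairs or batches, and changed only genes above a floor of counts. These rates thus do not describe smaller changes, genes with few reads or the paired libraries.

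The members and lists were chosen with earlier results of these data known. The genes named were the 10 genes, up to 3 called genes with the highest and 3 with the lowest log2 fold change of each list in each comparison, DUSP6, SPRY4, CHAC1 and TRIB3 as checks, and the 3 genes most like HIF1A, EPAS1 and VEGFA. Exceptions are marked or are genes that 1 comparison named and the other shows. Some genes of the lists are not reported here.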

Additional observations from a re-analysis of the deposited data

How the results depend on the processing

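Among the 9 genes, no log2 fold change of a called gene changed sign under the alternatives. Numbers of called genes, in lists or in all, were marked only as the same or moved, so a change of direction could not show in them. Of all 744 values under the alternatives, these numbers included, 633 were marked the same. With MAPKi, 2629 genes were called higher and 2777 lower. Against no change these were 5821 and 5651 with 5 of the 9 genes higher, and in 1 fit of all 12 libraries 1724 were higher. BNIP3 was lost with DESeq2 and in the fit of 12 libraries, leaving 1 of the 9 genes lower. With the replicate block, where same-numbered libraries shared only a number (correlations 0.0231, 0.0499 and 0.0205, MAPKi replicate 1 being most like DMSO replicate 3), 2709 and 2786 were called and 3 and 2 of the 9 genes were called. Leaving out each library gave 2421 to 2553 higher and 2604 to 2675 lower. EGLN1 lost its call against no change in the fit of 12 libraries (edgeR adjusted p = 0.109), and NDRG1, not called, had a log2 fold change of 0.024 without DMSO replicate 2.

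With Gln depletion, 480 genes were called higher and 289 lower. These were 1289 and 1176 against no change (2 of the 9 genes higher, 1 lower), 1079 and 1032 in 1 fit of 12 libraries (2 and 1), 1233 and 1095 with the replicate block (2 and 2) and 754 and 654 in experimental batch 2 alone (2 and 2). With library totals only, 399 were higher and 457 lower, so that 46.6% of calls were higher against 62.4%, and the log2 fold changes of all genes shifted by -0.14. Leaving out each library gave 198 to 560 higher and 62 to 457 lower, and 0 to 1 of the 9 genes lower. The lowest numbers came without CTRL medium replicate 2 (198 and 68), CTRL medium replicate 3 (204 and 96) and Gln-depleted replicate 2 (208 and 62), the highest without Gln-depleted replicate 1 (560 and 457), and 339 and 150 without Gln-depleted replicate 3. Against no change, EPAS1 (edgeR adjusted p = 0.0291) reached 0.0618 to 0.108 without any 1 of CTRL medium replicates 1 to 3 and Gln-depleted replicates 2 and 3, and NDRG1 (edgeR adjusted p = 0.025) reached 0.0603 to 0.0878 without CTRL medium replicate 2 or 3 or Gln-depleted replicate 2. The cause of these differences was not tested, other than fewer libraries or another threshold. The replicate block changed no call of the 9 genes other than those given.

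Of 304 values of the 9 genes under 22 settings, 274 were marked the same. That mark meant the same side of the threshold against no change, and the same direction unless neither value was called. NDRG1 with MAPKi was thus marked the same, though its log2 fold change went from -0.035 to 0.024 without DMSO replicate 2. For single genes the test against no change reused the main fit. Its values had to be marked the same, here and among the 744. Few reads limit EGLN3, ANKRD37 and CA9, and the rows of LDHA, MIF and EGLN2 hold at most 49 reads per library beside further copies of LDHA and MIF (48 to 4114 reads for that of MIF) and a read-through gene at EGLN2, so they do not show the level of these genes.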
